A study of Mus musculus with 8 samples.

Results

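Mouse zygotes injected with both Trim21 mRNA and anti-COPS3 antibody (called the full treatment here) were compared with zygotes injected with Trim21 mRNA and no antibody, by the RNA levels of the 2-cell embryos they gave. The comparison was chosen by the labels of the samples alone and rests on 4 of the 8 arrays of the series, with 2 pools of 100 embryos per group. In both groups the zygotes came from hormone-stimulated matings of B6C3F1 x CD1 animals, were injected into the ooplasm at the mid-pronuclear stage and were cultured for 28 h afterwards, although their age label gives 24 h in vitro. Per the labels, zygotes of the full treatment formed 2-cell embryos poorly and many stayed undivided, as did those given the antibody alone, while cleavage was normal with Trim21 mRNA and in non-manipulated embryos. A second pair of groups was embryos injected with the antibody alone, against non-manipulated embryos left in the incubator. It gave the antibody difference without injected mRNA, together with any effect of the injection itself. All 4 groups share the same cross and culture medium. Each group was treated on a day of its own within the same week and both of its pools came from that day, so day and group cannot be told apart, and the p-values measure only the spread between pools of a single day. A group with an unrelated antibody is not part of the design, so removal of COPS3 protein cannot be told apart from other consequences of antibody injection.

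TRIM21 is a ubiquitin ligase that recognises the constant part of antibodies and has the bound complex destroyed by the proteasome, so that an injected antibody removes its target protein and not its mRNA. COPS3 belongs to the COP9 signalosome, an enzyme complex that takes the ubiquitin-like protein NEDD8 off cullin ubiquitin ligases and thereby sets which ligases are active. At the 2-cell stage of the mouse the embryo degrades RNA stored in the oocyte and starts transcription of its own genome, including the housekeeping genes that make RNA, protein and nucleotides.

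The arrays were whole-transcript arrays, and the deposited values are log2 levels, so a difference of 1 is a change of 2-fold. Array medians were 5.15 and 5.29 in the full treatment, against 4.87 and 4.90 with Trim21 mRNA, and on both full-treatment arrays many transcript clusters shared the array's highest value (169 and 151 clusters), as on the array of antibody-alone pool 1 (136), while on each of the other 5 arrays 1 cluster held it. Trim21 itself stood at 10.40 and 10.30 in full-treatment pools, against 9.77 and 10.14 with Trim21 mRNA, and at 6.76 and 6.37 with antibody alone, against 6.27 and 5.65 in non-manipulated embryos, so the transcript that the labels name was high in both groups that received it. Cops3 mRNA stood at 9.06 and 9.40 in full-treatment pools, against 10.00 and 9.97 with Trim21 mRNA, a difference of −0.76 ± 0.16 that does not check a method acting on protein. Cops3 lost its call after quantile normalization, after cyclic loess or without full-treatment pool 1, either Trim21 mRNA pool or either non-manipulated pool (adjusted p up to 0.961). Differences are given as the full treatment minus Trim21 mRNA, with the standard error of limma's fit (n = 2 pools per group), and a gene is said to rise or fall where limma's adjusted p was under 0.05. The number of arrays limits the precision. In pools of whole embryos, fewer cells of a kind and less RNA per cell cannot be told apart. Markers of cells that could travel with the embryos were counted beside all genes, of which 8.73% rose and 14.5% fell. Of cumulus and granulosa markers 1 of 20 rose and 1 fell, of sperm markers 2 of 17 rose and 1 fell, of oviduct markers 2 of 15 rose and 1 fell, and of blood and immune markers 1 of 12 rose and 1 fell. Their summed linear signal was 1018 and 1276 in the full treatment, against 4009 and 3844 with Trim21 mRNA, for the cumulus list, where Amhr2 fell (−3.33 ± 0.37). In the same order of groups the sperm list summed to 1595 and 1524, against 974 and 997, the oviduct list to 883 and 990, against 2255 and 2085, and the blood list to 1454 and 1674, against 3663 and 4888. The oviduct gene that fell was Epcam (−2.34 ± 0.19) and the blood gene that fell was Fcgr3 (−1.71 ± 0.21). With Trim21 mRNA, Amhr2 (11.61 and 11.54), Epcam (10.75 and 10.62) and Fcgr3 (11.71 and 12.16) held most of the sums of their lists. The lower sums therefore follow single genes. List medians were 0.17 for cumulus, 0.405 for sperm, 0.345 for oviduct and 0.23 for blood, against 0.21 for all genes. Has2 of the cumulus list (0.555) and Dnah9 of the oviduct list (0.545) rose. Neither kept its call with each array centred on its median (0.22 and 0.21) or without any single pool of the groups compared. The part of these cells in the differences below was not tested.

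Of 30701 genes tested, 2679 rose (8.73%) and 4447 fell (14.5%) in the full treatment. Changes of at least 2-fold were 1287 rises (4.19%) and 3704 falls (12.1%), and the median difference over all genes was 0.21. With each array centred on its median 876 genes rose and 5364 fell, and that median was −0.13, against −0.01 after quantile normalization and −0.02 after cyclic loess. The number of rises, more than that of falls, rested on single pools: 595 genes rose and 2771 fell without Trim21 mRNA pool 1, 656 and 2799 without Trim21 mRNA pool 2, 1423 and 3255 without full-treatment pool 2, 1297 and 3680 without either non-manipulated pool, and 7968 and 6225 without either antibody-alone pool. In 23570 genes (76.8%) the pools of the groups did not overlap, so separate pools alone single out no gene. The change followed the level a gene had in non-manipulated embryos, which take no part in the contrast. Among 3162 genes under a log2 level of 4 there, 8.38% rose and 0.00% fell. Among the 722 genes at 14 or more, 6.37% rose and 69.0% fell, with a median difference of −2.11. Of the 7256 genes at 8 or more, 9.67% rose and 47.1% fell (median −0.90). The lists of housekeeping genes below, whose members mostly lie there, are read against those shares as well as against all genes. Values were less spread on the full-treatment arrays (standard deviations of 2.38 and 2.27, against 2.66 and 2.66 with Trim21 mRNA). The shares by level are from the deposited values, and the part of this narrower spread in them was not tested.

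**Figure D1:**
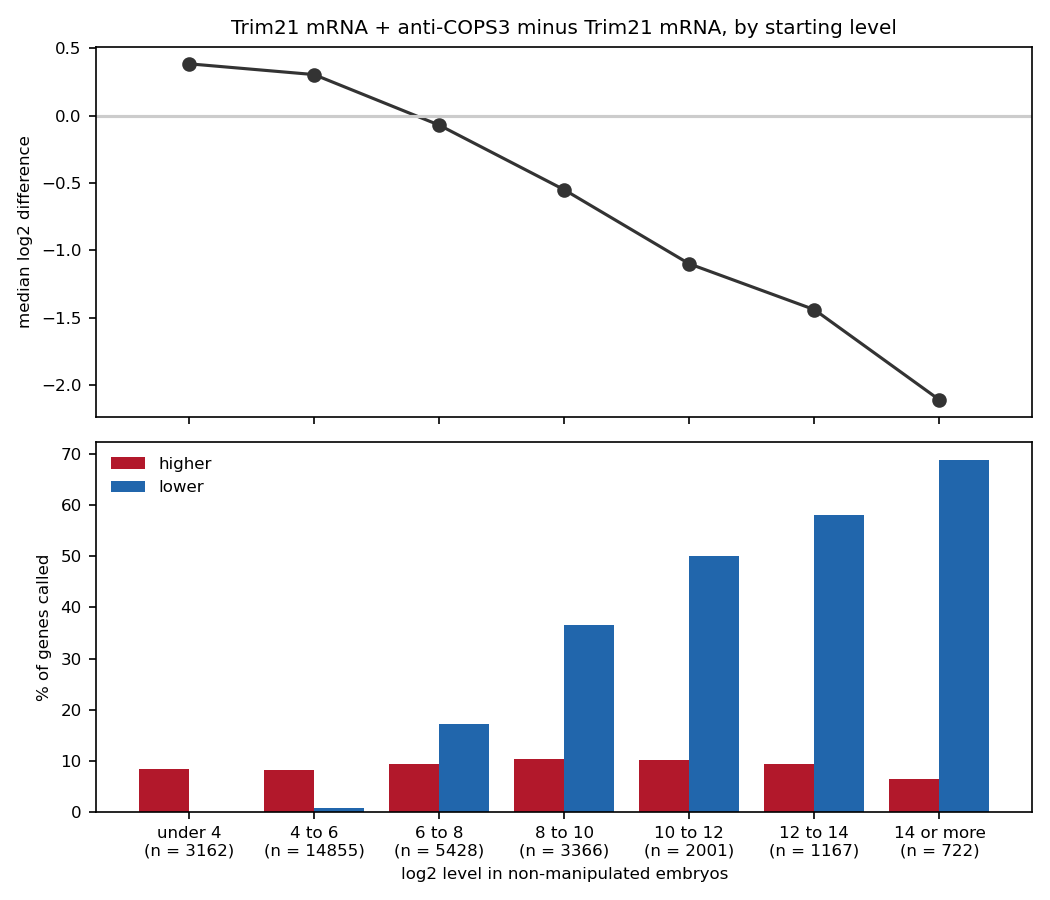
Median log2 difference between the full treatment and Trim21 mRNA (top) and percent of genes that rose or fell (bottom, bars), by the mean log2 level of the gene in non-manipulated embryos; n is the number of genes in each level class. The median goes down with level, to −2.11 for the 722 genes at 14 or more, while the share of genes that rose stays between 6.37% and 10.3%.

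The 25 largest falls lay in genes of many functions. Slc39a4, which imports zinc into cells, stood at 6.58 and 6.85 in full-treatment pools, against 13.20 and 12.99 with Trim21 mRNA, a difference of −6.38 ± 0.70 or 83.3-fold lower. Ssr2, a subunit of the complex beside the protein channel of the endoplasmic reticulum (ER), stood at 9.25 and 9.42 in full-treatment pools, against 15.05 and 14.75 with Trim21 mRNA (−5.57 ± 0.27). Gins3, part of the helicase that opens DNA at replication forks, stood at 7.76 and 8.04 in full-treatment pools, against 13.01 and 12.93 with Trim21 mRNA (−5.07 ± 0.18). Genes entered this list only where the pools of the groups did not overlap, so their separate pools are not a result. Among genes of RNA and ribosome assembly, the differences were −5.54 for Wdr74, −4.95 for the nuclease gene Isg20l2 and −4.91 for the RNA helicase gene Ddx21. They were −4.62 for Znhit6, which helps assemble small nucleolar ribonucleoproteins, and −4.57 for Gemin5, which brings small nuclear RNAs to the SMN complex. Calcoco2, known in human cells as an autophagy receptor, differed by −5.59, and Actr6, a subunit of the SRCAP chromatin remodeller, by −5.33. The difference was −4.95 for Slc5a6, which takes up the vitamins biotin and pantothenate. Timm13, which chaperones proteins between the mitochondrial membranes, differed by −4.94, and Gldc, an enzyme of the mitochondrial glycine cleavage system, by −4.85. Phlda2, an imprinted gene known for restraining placental growth, stood at 8.00 and 7.75 in full-treatment pools, against 12.76 and 12.85 with Trim21 mRNA (−4.93 ± 0.20). The other 11 of the 25 largest falls were Rflnb, Rpl27, Npl, Tsn, Flvcr2, Ppp1r14a, Psmb1, Tbc1d9, Trim43c, Trim43b and Rab20, with differences of −4.83 for Rflnb to −4.55 for Rab20. Trim43b and Trim43c are close copies, so the values of either one are uncertain. Isg20l2 lost its call without either full-treatment pool, either Trim21 mRNA pool or either non-manipulated pool (adjusted p up to 0.139). Gemin5 lost its call without either full-treatment pool or either Trim21 mRNA pool (adjusted p up to 0.0619). Their antibody-alone pools, which enter the same fit, lay far apart, at 5.86 and 10.35 for Isg20l2 and at 5.92 and 9.01 for Gemin5.

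The 25 largest rises were likewise of many kinds. Kdelr2, a receptor that returns escaped proteins to the ER, stood at 12.50 and 11.81 in full-treatment pools, against 9.17 and 8.90 with Trim21 mRNA (3.12 ± 0.43, 8.69-fold higher). Tgfb2, a ligand of the TGF-beta family, stood at 15.11 and 15.01 in full-treatment pools, against 12.17 and 12.25 with Trim21 mRNA (2.85 ± 0.14). Rela, the transcription factor subunit p65 of NF-kB, stood at 11.90 and 11.84 in full-treatment pools, against 8.97 and 9.13 with Trim21 mRNA (2.82 ± 0.20). As for the falls, separate pools were a condition for entering this list. Tlr9, a receptor for DNA in endosomes, rose by 3.04 ± 0.27, and Usf2, a transcription factor that binds E-box DNA, by 2.90 ± 0.31. Eef2k, whose kinase slows translation elongation, rose by 2.74 ± 0.21, and Ctif, a translation factor for capped RNA leaving the nucleus, by 2.47 ± 0.22. Spry4, an inhibitor of receptor tyrosine kinase signalling, stood at 14.76 and 14.58 in full-treatment pools, against 12.06 and 12.16 with Trim21 mRNA (2.56 ± 0.36). Il34, a cytokine that binds the receptor of CSF1, rose by 2.55 ± 0.16, the hormone subunit gene Lhb by 2.45 ± 0.31, and the myeloid receptor gene Trem1 by 2.78 ± 0.23. Of genes from oocyte-expressed families, Nlrp4e rose by 2.90, Pramel19 by 2.86, Tcl1b5 by 2.83, Oosp2 by 2.66, Oog4 by 2.53, Pramel16 by 2.46 and Nlrp9b by 2.43. The other members of the 25 were Tmem92, Tmem181a, Abhd4, Lratd2 and the deubiquitinase copies Usp17lc (3.48), Usp17la (2.80) and Usp17le (2.67). Copies within the Usp17l, Nlrp, Pramel and Oog families are close in sequence, so the values of single copies are uncertain. Usp17lc lost its call without full-treatment pool 2 or Trim21 mRNA pool 1 (adjusted p up to 0.0542). Usp17la lost its call after median centring or without either full-treatment pool or either Trim21 mRNA pool (adjusted p up to 0.112). Usp17le lost its call after median centring or without either full-treatment pool, either Trim21 mRNA pool or either non-manipulated pool (adjusted p up to 0.189).

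**Figure D2:**
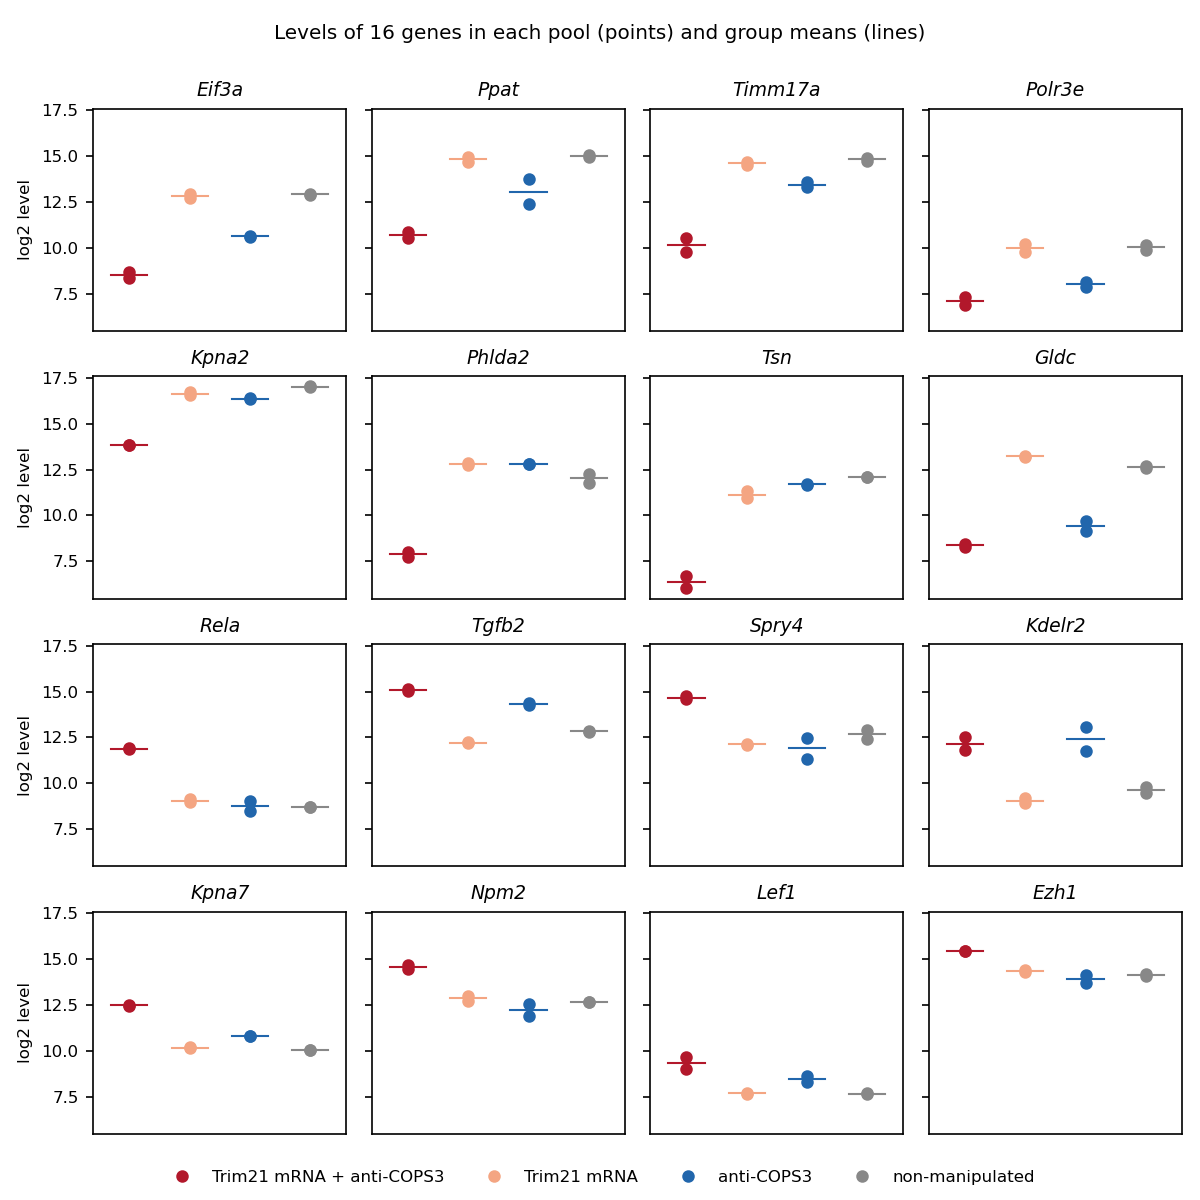
Log2 levels of 16 genes (panels) in each pool of the 4 groups (points; lines are means of 2 pools). The top 2 rows show 8 genes that fell and the bottom 2 rows 8 genes that rose in the full treatment against Trim21 mRNA, with no overlap between the pools of those groups in any panel. Genes among the largest falls and rises were picked with separate pools.

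Promoter sequences were set beside these changes. RefSeq (GRCm38.p6) gave a single window of 250 bases before to 50 after the start for 11244 of the 17109 tested genes that are neither predicted, small RNA nor receptor-repertoire genes. The windows of Wdr74 and Gins3, with large falls and an ETS motif, and of Nlrp4e and Tgfb2, with large rises, are given as examples and were picked after their values were seen. Capitals mark every match, on either strand, to any of 8 letter strings. ETS factors, which sit at many housekeeping promoters, were searched as CCGGAAGT. The repressor and activator YY1 was searched as AAGATGGC. SP1, which binds GC-rich promoters, was searched as GGGCGG. The element of cAMP signalling, CRE, was searched as TGACGTCA. The E-box of USF and MYC factors was searched as CACGTG. NF-Y, which reads a box near the start site, was searched as CCAAT. The TATA box, which positions the start site, was searched as TATAAA. The homeobox factors OBOX and OTX were searched as TAATCC. Where matches overlap, as NF-Y and SP1 do in Gins3, the capitals run together. Wdr74 lies at chr19:8735589-8735888, plus strand, Gins3 at chr8:95633309-95633608, plus strand, Nlrp4e at chr7:23300942-23301241, plus strand and Tgfb2 at chr1:186705940-186706239, minus strand.
Wdr74: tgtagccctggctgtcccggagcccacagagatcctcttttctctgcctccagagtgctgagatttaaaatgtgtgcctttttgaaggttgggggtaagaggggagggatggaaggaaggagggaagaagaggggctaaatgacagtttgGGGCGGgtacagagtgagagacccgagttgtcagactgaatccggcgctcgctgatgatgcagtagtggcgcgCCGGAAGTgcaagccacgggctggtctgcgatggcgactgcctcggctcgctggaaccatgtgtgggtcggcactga
Gins3: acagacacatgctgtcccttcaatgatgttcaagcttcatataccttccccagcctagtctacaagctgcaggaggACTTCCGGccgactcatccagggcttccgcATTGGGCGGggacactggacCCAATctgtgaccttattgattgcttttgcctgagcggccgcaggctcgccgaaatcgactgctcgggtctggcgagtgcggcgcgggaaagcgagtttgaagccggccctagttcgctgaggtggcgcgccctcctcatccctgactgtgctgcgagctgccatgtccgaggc
Nlrp4e: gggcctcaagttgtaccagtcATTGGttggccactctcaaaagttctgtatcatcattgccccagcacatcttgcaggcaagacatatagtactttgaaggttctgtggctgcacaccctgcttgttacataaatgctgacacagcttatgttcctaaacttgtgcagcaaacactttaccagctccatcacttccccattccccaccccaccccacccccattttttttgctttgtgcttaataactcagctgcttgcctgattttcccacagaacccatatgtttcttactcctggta
Tgfb2: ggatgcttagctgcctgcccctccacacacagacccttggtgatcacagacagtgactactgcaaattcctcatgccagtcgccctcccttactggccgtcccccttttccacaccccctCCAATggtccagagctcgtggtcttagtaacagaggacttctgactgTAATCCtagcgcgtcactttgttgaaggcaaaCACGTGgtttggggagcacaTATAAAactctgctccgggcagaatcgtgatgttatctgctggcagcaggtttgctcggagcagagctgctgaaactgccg
The Wdr74 window holds 15 CpG and that of Gins3 holds 21, while that of Nlrp4e holds 0 and that of Tgfb2 holds 10. Over the 15 genes among the 25 largest falls with a window the median was 21 CpG (range 5 to 44), and over the 14 among the 25 largest rises it was 2 (range 0 to 31). Among all genes with a window and a log2 level of at least 8 in non-manipulated embryos the medians lay closer together, at 22 CpG for falls and 18 for rises of at least 2-fold, 24 for genes not called and 23 for all. The ETS string stood in 3 of those 15 windows and in 0 of the 14. Among all genes with a window and a log2 level of at least 8 in non-manipulated embryos, it stood in 14.3% of 1424 genes that fell at least 2-fold, in 3.93% of 229 that rose at least 2-fold, in 9.19% of 1524 not called and in 11.1% of all 3405. The E-box string stood in 14.5% of the falls, 5.68% of the rises, 10.8% of genes not called and 11.8% of all. TATA went the other way, with 6.39% of the falls, 11.4% of the rises, 5.91% of genes not called and 6.49% of all. The NF-Y string, at 43.1%, 39.3%, 42.1% and 42.1% in the same order, and OBOX/OTX, at 7.09%, 6.11%, 5.84% and 6.34%, varied less. SP1 stood in 65.4%, 54.6%, 73.0% and 68.1%, YY1 in 6.32%, 3.93%, 6.63% and 6.31%, and CRE in 4.35%, 1.31%, 4.40% and 4.14%. These shares are descriptions without a test, and a match is not a binding site.

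Genes that make and start proteins fell together outside the ribosome. Of 28 measured translation initiation factors, 23 fell and 0 rose, with a list median of −2.33, and all 28 stood at 8 or more in non-manipulated embryos, where 47.1% of genes fell. Eif3a, the scaffold of the factor that holds the small ribosomal subunit ready, stood at 8.68 and 8.33 in full-treatment pools, against 12.91 and 12.73 with Trim21 mRNA (−4.32 ± 0.17, limma's adjusted p 6.50e-05). Eif3m, a smaller subunit of the same factor, stood at 8.86 and 8.88 in full-treatment pools, against 13.32 and 13.16 with Trim21 mRNA (−4.37 ± 0.23), and Eif3h at 12.11 and 11.88 in full-treatment pools, against 15.61 and 15.57 with Trim21 mRNA (−3.60 ± 0.28). Eif2b3, of the factor that recharges eIF2 with GTP, differed by −3.66 ± 0.57. The cap-binding factor gene Eif4e, chosen after its values were seen, differed by −1.92 ± 0.15. Of 20 genes of cytosolic tRNA synthetases and their scaffold, which load amino acids on tRNAs, 13 fell and 0 rose (median −1.42). Rars, for arginine, stood at 7.51 and 7.40 in full-treatment pools, against 10.87 and 10.77 with Trim21 mRNA (−3.37 ± 0.29), and Kars, for lysine, at 12.44 and 12.02 in full-treatment pools, against 14.93 and 14.80 with Trim21 mRNA (−2.64 ± 0.20). The pools did not overlap in either gene. Eprs, for glutamate and proline, differed by −2.82 ± 0.45.

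The RNA side of protein synthesis moved the same way. Of 36 genes that trim and modify tRNAs, 25 fell and 0 rose (median −1.23). Nsun2, which methylates cytosines in tRNAs, stood at 9.32 and 8.59 in full-treatment pools, against 12.53 and 12.32 with Trim21 mRNA (−3.47 ± 0.27). Pop4, a protein of ribonuclease P, which cuts the 5′ end of tRNA precursors, stood at 7.53 and 7.57 in full-treatment pools, against 10.62 and 10.93 with Trim21 mRNA (−3.23 ± 0.30), and its partners Rpp14 and Rpp40 differed by −2.82 ± 0.33 and −2.45 ± 0.31. RNA polymerase III, which transcribes tRNAs and 5S rRNA, and its factors gave 14 falls and 0 rises of 21 (median −2.22). Among its 17 members at 8 or more in non-manipulated embryos, 14 fell. Gtf3c1, the largest subunit of the factor that recognises tRNA genes, stood at 9.68 and 9.55 in full-treatment pools, against 12.58 and 12.45 with Trim21 mRNA (−2.90 ± 0.15). Polr3e, a subunit of the polymerase, stood at 6.88 and 7.33 in full-treatment pools, against 10.22 and 9.78 with Trim21 mRNA (−2.90 ± 0.24). The full-treatment pools lay below the Trim21 mRNA pools in both. Gtf3c6 differed by −3.58 ± 0.46 and Brf2, which directs the polymerase to promoters with a TATA box, by −3.05 ± 0.29.

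Transcription partners and RNA 3′ processing fell in part. Integrator, which cuts nascent RNA of snRNA and paused genes, had 8 of 14 members lower and 0 higher (median −1.17). Its scaffold gene Ints1 stood at 7.06 and 7.30 in full-treatment pools, against 10.89 and 10.89 with Trim21 mRNA (−3.71 ± 0.21) and its nuclease gene Ints11 at 7.22 and 7.06 in full-treatment pools, against 9.81 and 9.95 with Trim21 mRNA (−2.74 ± 0.15). Of 18 cleavage and polyadenylation genes 11 fell and 0 rose (median −1.31), among them the poly(A) polymerase gene Papola (−2.05 ± 0.27) and Cpsf6 (−1.95 ± 0.25). That list had 0 rises and 4 falls after quantile normalization and 0 and 6 after cyclic loess. Mediator, which links transcription factors to RNA polymerase II, had 10 members lower and 3 higher of 31 (median −0.78), but 8 rises and 7 falls after quantile normalization and 7 and 8 after cyclic loess. Of its 29 members at 8 or more in non-manipulated embryos 10 fell, a share below the 47.1% of all genes there. At that level 8 of 12 Integrator and 8 of 13 cleavage and polyadenylation genes fell. Med4 stood at 8.31 and 7.79 in full-treatment pools, against 11.34 and 11.30 with Trim21 mRNA (−3.27 ± 0.21) and Med6 at 8.11 and 8.20 in full-treatment pools, against 11.34 and 11.04 with Trim21 mRNA (−3.04 ± 0.17). Med15 went up, at 12.04 and 11.07 in full-treatment pools, against 9.38 and 9.53 with Trim21 mRNA (2.10 ± 0.31), and so did Med30 (1.89 ± 0.32), both chosen after their values were seen. Of 14 genes for the m6A mark on RNA, 2 fell and 1 rose, the riser being the demethylase gene Alkbh5 (1.20 ± 0.25), and the list had 3 rises and 0 falls after quantile normalization and 3 and 0 after cyclic loess. Med30 lost its call without Trim21 mRNA pool 2 (adjusted p up to 0.0517). Alkbh5 lost its call after median centring or without full-treatment pool 1 or either Trim21 mRNA pool (adjusted p up to 0.143).

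Falls outnumbered rises among genes of traffic through the nuclear envelope, and 2 importin alpha paralogs separated. Of 34 importin, exportin and mRNA export genes, 21 fell and 3 rose (median −1.36). Kpna2, an importin alpha that reads nuclear localisation signals, stood at 13.86 and 13.83 in full-treatment pools, against 16.75 and 16.55 with Trim21 mRNA (−2.81 ± 0.15). Kpna7, the importin alpha known from mouse oocytes and early embryos and chosen after its values were seen, stood at 12.52 and 12.47 in full-treatment pools, against 10.16 and 10.20 with Trim21 mRNA (2.32 ± 0.14). The paralogs thus changed in opposite directions, and the pools overlapped in neither. Whether the cluster read for Kpna2 lies at the gene itself or at a copy elsewhere in the genome was not tested. Tnpo3, which imports splicing proteins, differed by −3.67 ± 0.24, Ipo5 by −2.78 ± 0.19, and Xpo1, the main exporter of proteins, by −2.72 ± 0.20. Of 23 nuclear pore genes 10 fell and 0 rose (median −0.75), with 10 falls among its 22 members at 8 or more in non-manipulated embryos, against 47.1% of all genes there. The pore list had 4 rises and 7 falls after quantile normalization and 3 and 7 after cyclic loess, with medians of 0.04 and −0.14. Nup107 stood at 6.84 and 6.83 in full-treatment pools, against 10.56 and 10.25 with Trim21 mRNA (−3.57 ± 0.16) and Nup133, of the same ring complex, at 7.64 and 7.29 in full-treatment pools, against 11.74 and 11.57 with Trim21 mRNA (−4.19 ± 0.26).

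**Figure D3:**
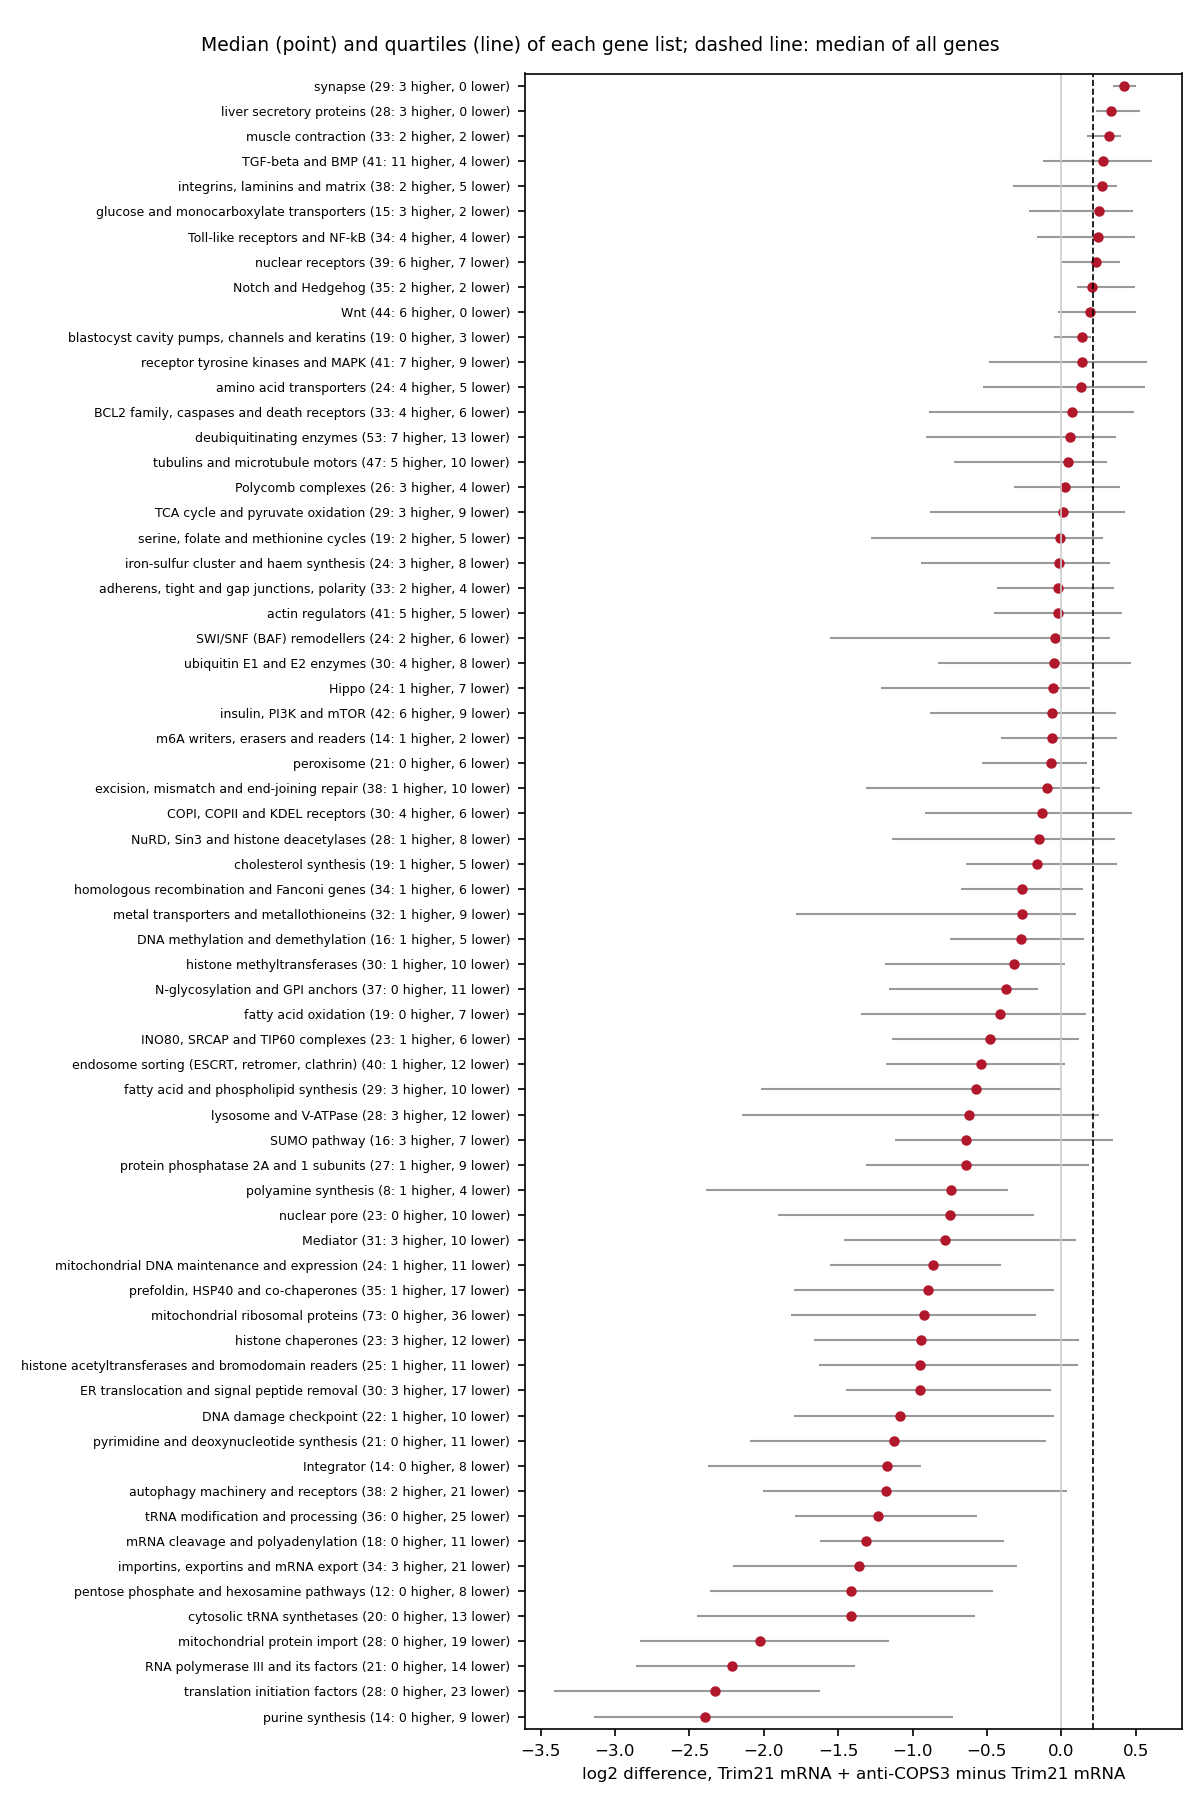
Median (points) and quartiles (lines) of the log2 difference, full treatment minus Trim21 mRNA, for each of the 66 gene lists of functions, with the number of measured members and how many rose or fell; the dashed line is the median of all genes (0.21). Purine synthesis (−2.40) and translation initiation (−2.33) lie lowest, while the TGF-beta and BMP list (0.28) has 11 rises and 4 falls.

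Among the lists of nuclear genes for mitochondria, protein import had the lowest median. Mitochondrial protein import had 19 of 28 members lower and 0 higher (median −2.02). Timm17a, of the inner membrane channel, stood at 10.51 and 9.76 in full-treatment pools, against 14.69 and 14.50 with Trim21 mRNA (−4.46 ± 0.27), and Tomm70a, a receptor on the outer membrane, at 5.82 and 5.96 in full-treatment pools, against 9.49 and 9.04 with Trim21 mRNA (−3.38 ± 0.21). Timm10, a chaperone between the membranes, stood at 5.93 and 6.02 in full-treatment pools, against 9.56 and 9.48 with Trim21 mRNA (−3.55 ± 0.27). No pools overlapped in the 3 genes. Mitochondrial ribosomal proteins gave 36 falls and 0 rises of 73 (median −0.93), with Mrpl34 at −3.51 ± 0.30, Mrpl22 at −3.29 ± 0.51 and Mrps7 at −2.66 ± 0.25. Genes that maintain and express mitochondrial DNA fell in 11 of 24 cases and rose in 1. Tufm, the mitochondrial elongation factor, stood at 6.91 and 7.05 in full-treatment pools, against 10.90 and 11.25 with Trim21 mRNA (−4.10 ± 0.26), and Polrmt, the mitochondrial RNA polymerase, at 6.47 and 6.43 in full-treatment pools, against 9.23 and 8.89 with Trim21 mRNA (−2.61 ± 0.17). In the tricarboxylic acid cycle and pyruvate oxidation 9 genes fell and 3 rose of 29 (median 0.01), Pdhb and Mdh2 among the falls (−3.04 ± 0.21 and −3.12 ± 0.17). This balance turned with the scaling, to 8 rises and 6 falls after quantile normalization and 7 and 5 after cyclic loess. Fatty acid oxidation gave 7 falls of 19, with Eci1 at −3.07 ± 0.52. Iron-sulfur and haem synthesis gave 8 falls, such as Nubp2 (−3.60 ± 0.20), and 3 rises of 24, led by Lyrm4, which helps the cluster assembly enzyme (2.09 ± 0.28). That list had 7 of each after quantile normalization and after cyclic loess.

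Purine synthesis and translation initiation had the lowest medians of the lists of functions, purine synthesis being the lower except after quantile normalization (−1.76, against −1.77 for initiation). Of 14 measured genes 9 fell and 0 rose (median −2.40), and of the 10 members at 8 or more in non-manipulated embryos 9 fell. Prps1, which makes the activated ribose, stood at 14.80 and 14.29 in full-treatment pools, against 17.28 and 17.06 with Trim21 mRNA (−2.63 ± 0.21). Ppat, which commits it to the pathway, stood at 10.88 and 10.51 in full-treatment pools, against 14.92 and 14.70 with Trim21 mRNA (−4.12 ± 0.40, limma's adjusted p 5.65e-04). Gart, which carries later steps, stood at 6.50 and 6.86 in full-treatment pools, against 9.77 and 9.59 with Trim21 mRNA (−3.00 ± 0.27), and Paics, which carries others, differed by −2.04 ± 0.26. Every one of these steps lay lower in both full-treatment pools. Adsl, the next enzyme, differed by −2.21 ± 0.32, and Impdh1 and Gmps, which lead from IMP to GMP, by −3.74 ± 0.45 and −2.59 ± 0.33. The salvage enzyme genes Aprt and Hprt differed by −3.52 ± 0.16 and −3.19 ± 0.55. Atic, which makes IMP, was not called (−0.68 ± 0.40, adjusted p 0.248). Prps1, Gart, Paics, Adsl and Gmps were named after their values were seen. Hprt lost its call without full-treatment pool 2 or Trim21 mRNA pool 1 (adjusted p up to 0.0551).

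Other pathways for nucleotides and sugars went the same way, while the carbon and lipid pathways gave fewer falls. Pyrimidine and deoxynucleotide synthesis had 11 of 21 genes lower and 0 higher (median −1.13), including Cad, the enzyme of the first steps, at 6.96 and 7.28 in full-treatment pools, against 10.83 and 10.51 with Trim21 mRNA (−3.55 ± 0.21), and Umps, that of the last, at 6.14 and 6.57 in full-treatment pools, against 10.52 and 10.25 with Trim21 mRNA (−4.03 ± 0.46). Pentose phosphate and hexosamine genes fell in 8 of 12 cases and rose in 0 (median −1.41), with Taldo1 at −3.31 ± 0.18 and Gfpt1, the entry to the hexosamine pathway, at −2.72 ± 0.15. In the serine, folate and methionine cycles 5 of 19 fell and 2 rose. Phgdh and Psat1, the first enzymes of serine synthesis, differed by −3.43 ± 0.39 and −2.63 ± 0.22. Shmt2, which moves a carbon from serine to folate in mitochondria and was chosen after its values were seen, rose, at 11.36 and 11.14 in full-treatment pools, against 10.07 and 10.28 with Trim21 mRNA (1.08 ± 0.20). Fatty acid and phospholipid synthesis gave 10 falls and 3 rises of 29, with Elovl6 at −3.92 ± 0.41, Dgat2, which makes triglyceride, at −3.80 ± 0.38 and Ptdss2 at −3.28 ± 0.17. Of 19 cholesterol synthesis genes 5 fell and 1 rose, Fdps among the falls (−2.00 ± 0.28), and after quantile normalization 2 of each. Odc1, the first enzyme of polyamine synthesis, stood at 13.72 and 13.68 in full-treatment pools, against 16.12 and 15.99 with Trim21 mRNA (−2.36 ± 0.21), and Srm, which makes spermidine, differed by −2.48 ± 0.33, in a list with 4 falls and 1 rise of 8. Shmt2 lost its call after median centring or without full-treatment pool 1 or Trim21 mRNA pool 1 (adjusted p up to 0.131).

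Lists of membrane transporters are small, and their counts stand beside 8.73% rises and 14.5% falls of all genes. Amino acid transporters gave 5 falls and 4 rises of 24, with Slc1a1, a glutamate transporter, at 8.83 and 9.03 in full-treatment pools, against 12.94 and 12.49 with Trim21 mRNA (−3.79 ± 0.47) while Slc6a9, a glycine transporter chosen after its values were seen, rose, at 12.41 and 11.82 in full-treatment pools, against 10.82 and 10.70 with Trim21 mRNA (1.36 ± 0.39). Glucose and monocarboxylate carriers gave 2 falls and 3 rises of 15. Slc2a1, the broadly expressed glucose carrier, differed by 0.99 ± 0.26. Metal transporters and metallothioneins gave 9 falls and 1 rise of 32. Besides Slc39a4, Mt1, a metallothionein that binds zinc, stood at 8.45 and 8.80 in full-treatment pools, against 12.57 and 12.35 with Trim21 mRNA (−3.84 ± 0.39), its relative Mt2 differed by −2.54 ± 0.22, and Tfrc, the receptor for iron-loaded transferrin, differed by −3.14 ± 0.18. Slc6a9 lost its call after median centring, with the mean of its clusters, with the replicate block or without either full-treatment pool, either Trim21 mRNA pool or either non-manipulated pool (adjusted p up to 0.566). Slc2a1 lost its call after median centring, with the replicate block or without full-treatment pool 1, either Trim21 mRNA pool or either non-manipulated pool (adjusted p up to 0.275).

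Within the secretory pathway falls outnumbered rises among genes for entry to the ER, and 2 genes of retrieval receptors rose. ER translocation had 17 of 30 members lower and 3 higher (median −0.95). Next to Ssr2, Srpr, the receptor for the signal recognition particle, stood at 9.48 and 9.91 in full-treatment pools, against 12.03 and 12.03 with Trim21 mRNA (−2.34 ± 0.24). Sec61b, a small subunit of the translocation channel, rose, at 8.44 and 8.55 in full-treatment pools, against 7.39 and 7.58 with Trim21 mRNA (1.01 ± 0.17), as did Tram1, beside the channel (1.84 ± 0.35), both chosen after their values were seen. Kdelr1, likewise chosen afterwards, rose as Kdelr2 did, at 8.59 and 8.38 in full-treatment pools, against 7.54 and 7.41 with Trim21 mRNA (1.01 ± 0.22), while Kdelr3 was not called (−0.16). Their list, with the COPI and COPII coats, had 6 falls, such as the coat genes Arcn1 (−2.17 ± 0.20) and Cope (−2.01 ± 0.24), and 4 rises of 30, against 14.5% and 8.73% of all genes, and the balance turned to 9 rises and 3 falls after quantile normalization and 9 and 3 after cyclic loess. N-glycosylation and GPI anchor genes gave 11 falls and 0 rises of 37, including Pmm1 and Pmm2, which make mannose 1-phosphate (−3.01 ± 0.27 and −2.94 ± 0.25). Sec61b lost its call after median centring or without Trim21 mRNA pool 1 (adjusted p up to 0.0988). Tram1 lost its call after median centring or without full-treatment pool 1 or Trim21 mRNA pool 2 (adjusted p up to 0.0793). Kdelr1 lost its call after median centring or without either full-treatment pool or either Trim21 mRNA pool (adjusted p up to 0.202).

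Genes for the breakdown of membranes and cargo fell more often than they rose, as did all genes (14.5% and 8.73%). Among genes at 8 or more in non-manipulated embryos, 47.1% fell and 9.67% rose. Of members at that level 18 of 26 autophagy, 11 of 18 lysosome, 11 of 27 endosome sorting and 4 of 7 peroxisome genes fell. Of 38 autophagy genes 21 fell and 2 rose (median −1.18). Atg9a, the membrane protein that seeds autophagosomes, stood at 8.65 and 8.64 in full-treatment pools, against 11.77 and 11.68 with Trim21 mRNA (−3.08 ± 0.15), and Atg14, of the lipid kinase that starts them, at 8.36 and 8.03 in full-treatment pools, against 12.52 and 12.20 with Trim21 mRNA (−4.17 ± 0.38). Gabarapl2, a ubiquitin-like protein of their membrane, stood at 13.59 and 13.41 in full-treatment pools, against 16.43 and 16.43 with Trim21 mRNA (−2.93 ± 0.27). Both full-treatment pools were lower in each. Lysosome and V-ATPase genes gave 12 falls and 3 rises of 28 (median −0.62), with the protease gene Ctsb at 10.50 and 10.50 in full-treatment pools, against 13.91 and 13.71 with Trim21 mRNA (−3.31 ± 0.18) and the membrane protein gene Lamp2 at 11.43 and 11.41 in full-treatment pools, against 14.69 and 14.50 with Trim21 mRNA (−3.18 ± 0.16). Endosome sorting genes gave 12 falls and 1 rise of 40, Snf8 of the ESCRT-II complex among the falls (−2.52 ± 0.19). That list had 5 rises and 6 falls after quantile normalization and 4 and 6 after cyclic loess. Peroxisome genes gave 6 falls and 0 rises of 21, with Pex3, which starts peroxisome membranes, at −2.15 ± 0.16.

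Chromatin genes held rises as well as falls, and some close relatives separated. Histone chaperones gave 12 falls and 3 rises of 23 (median −0.95), with 7 rises and 8 falls after quantile normalization and 5 and 9 after cyclic loess. Of its 22 members at 8 or more in non-manipulated embryos 12 fell, near the 47.1% of all genes there. Npm1, the nucleolar chaperone of most cells, stood at 15.60 and 15.44 in full-treatment pools, against 17.27 and 17.36 with Trim21 mRNA (−1.80 ± 0.16). Npm2, the oocyte chaperone that decondenses sperm chromatin, stood at 14.45 and 14.67 in full-treatment pools, against 12.71 and 13.01 with Trim21 mRNA (1.70 ± 0.25). The 2 nucleoplasmins, both chosen after their values were seen, thus moved apart. Set and Supt5 differed by −2.80 ± 0.16 and −2.82 ± 0.39. The BAF remodellers gave 6 falls and 2 rises of 24 (median −0.04). The core subunit gene Smarcc1 stood at 9.29 and 9.14 in full-treatment pools, against 12.51 and 12.34 with Trim21 mRNA (−3.21 ± 0.15), Brd9 differed by −3.00 ± 0.20, and Arid1b, chosen after its values were seen, rose, at 11.24 and 10.91 in full-treatment pools, against 9.68 and 9.55 with Trim21 mRNA (1.46 ± 0.18). INO80-type complexes gave 6 falls and 1 rise of 23, with Ino80 at −2.70 ± 0.21 and Ruvbl1 at −2.94 ± 0.27. Among histone deacetylase complexes (8 falls and 1 rise of 28) Hdac1 stood at 11.00 and 10.65 in full-treatment pools, against 13.89 and 13.86 with Trim21 mRNA (−3.05 ± 0.30). Acetyltransferase and bromodomain genes gave 11 falls and 1 rise of 25, with Kat2b at −3.04 ± 0.28. The balance of several of these lists depended on the scaling. BAF genes gave 7 rises and 6 falls after quantile normalization and 7 and 6 after cyclic loess, INO80-type genes 6 rises and 5 falls after quantile normalization and 5 and 6 after cyclic loess, and deacetylase genes 6 rises and 5 falls after quantile normalization and 4 and 6 after cyclic loess. Acetyltransferase and bromodomain genes gave 7 rises and 8 falls after quantile normalization and 7 and 8 after cyclic loess. Of members at 8 or more in non-manipulated embryos, 5 of 17 BAF, 6 of 16 INO80-type, 8 of 15 deacetylase and 11 of 25 acetyltransferase and bromodomain genes fell.

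Lists of silencing factors and of genome care held rises and falls. Of 26 Polycomb genes, which keep developmental genes silent, 4 fell and 3 rose (median 0.02), shares near those of all genes, and the list gave 10 rises and 3 falls after quantile normalization and 7 and 3 after cyclic loess. Pcgf6 and Mtf2 fell (−1.74 ± 0.17 and −1.77 ± 0.18), while Scmh1 rose, at 10.55 and 10.14 in full-treatment pools, against 8.01 and 8.03 with Trim21 mRNA (2.33 ± 0.26), and so did the histone methyltransferase gene Ezh1, chosen after its values were seen, at 15.46 and 15.46 in full-treatment pools, against 14.28 and 14.43 with Trim21 mRNA (1.11 ± 0.18). Histone methyltransferases as a list gave 10 falls and 1 rise of 30, with Prmt6 at −2.64 ± 0.27 and Ehmt1 at −2.44 ± 0.18, but 7 rises and 7 falls after quantile normalization and 8 and 7 after cyclic loess. DNA methylation genes gave 5 falls and 1 rise of 16, and 4 of each after quantile normalization and after cyclic loess. Tet1, which oxidises methylcytosine, stood at 7.15 and 7.24 in full-treatment pools, against 10.71 and 10.69 with Trim21 mRNA (−3.51 ± 0.33). Uhrf1, which guides maintenance methylation to new DNA, stood at 12.37 and 11.41 in full-treatment pools, against 9.98 and 9.84 with Trim21 mRNA (1.98 ± 0.33). Tet1 and Uhrf1 changed in opposite directions without overlap of pools. DNA damage checkpoint genes gave 10 falls and 1 rise of 22 (median −1.09), the kinase gene Chek2 (−3.21 ± 0.45) and Cdc25c (−2.80 ± 0.20), whose phosphatase opens mitosis, among the falls. Its paralog Cdc25b, chosen after its values were seen, rose, at 8.67 and 8.08 in full-treatment pools, against 7.24 and 7.11 with Trim21 mRNA (1.20 ± 0.24). Homologous recombination and Fanconi genes gave 6 falls and 1 rise of 34, with Fancm at −2.13 ± 0.31. Excision, mismatch and end-joining repair gave 10 falls and 1 rise of 38, with Msh6 at −2.36 ± 0.28. Of all genes 14.5% fell and 8.73% rose. Of members at 8 or more in non-manipulated embryos, 10 of 19 checkpoint, 4 of 13 recombination and Fanconi and 9 of 16 other repair genes fell. Of all genes at that level 47.1% fell. Ezh1 lost its call after median centring or without Trim21 mRNA pool 1 (adjusted p up to 0.093). Cdc25b lost its call after median centring or without full-treatment pool 1 or either Trim21 mRNA pool (adjusted p up to 0.107).

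Among genes that modify proteins, the balance of the lists for ubiquitin removal and conjugation turned with the scaling. Deubiquitinating enzymes gave 13 falls and 7 rises of 53 (median 0.06), but 13 rises and 7 falls after quantile normalization and 10 and 8 after cyclic loess. Usp36, a nucleolar member, stood at 7.77 and 7.42 in full-treatment pools, against 11.21 and 10.88 with Trim21 mRNA (−3.45 ± 0.24), and Uchl5, a member bound to the proteasome, at 8.14 and 7.73 in full-treatment pools, against 10.72 and 10.30 with Trim21 mRNA (−2.58 ± 0.24). Usp46, chosen after its values were seen, rose, at 10.12 and 9.80 in full-treatment pools, against 8.53 and 8.48 with Trim21 mRNA (1.46 ± 0.21). Ubiquitin E1 and E2 genes gave 8 falls and 4 rises of 30, with Ube2o at −2.38 ± 0.18 and Ube2j1, an E2 of the ER membrane, at 1.27 ± 0.17, and 9 rises and 3 falls after quantile normalization and 7 and 3 after cyclic loess. SUMO pathway genes gave 7 falls and 3 rises of 16, and 5 rises and 4 falls after quantile normalization and 4 and 5 after cyclic loess. Sae1, a subunit of the enzyme that activates SUMO, differed by −3.42 ± 0.70. Senp8, which in spite of its name removes NEDD8, the protein that the COP9 signalosome also removes, rose, at 11.05 and 11.52 in full-treatment pools, against 8.99 and 8.87 with Trim21 mRNA (2.36 ± 0.62). Prefoldin, HSP40 and co-chaperone genes gave 17 falls and 1 rise of 35 (median −0.90). Cdc37, which brings kinases to HSP90, stood at 6.20 and 6.43 in full-treatment pools, against 9.63 and 9.61 with Trim21 mRNA (−3.31 ± 0.19), Pfdn6 of prefoldin differed by −3.33 ± 0.22 and Bag1 by −3.21 ± 0.25. Phosphatase subunits gave 9 falls and 1 rise of 27, and 6 rises and 5 falls after quantile normalization and 5 and 5 after cyclic loess. Ppp2cb, a catalytic subunit of phosphatase 2A, stood at 10.57 and 9.79 in full-treatment pools, against 14.25 and 14.00 with Trim21 mRNA (−3.95 ± 0.27), and Ppp4c at 11.01 and 10.01 in full-treatment pools, against 13.56 and 13.42 with Trim21 mRNA (−2.98 ± 0.33). Sae1 lost its call without either full-treatment pool or either Trim21 mRNA pool (adjusted p up to 0.0895). Senp8 lost its call after median centring or without either full-treatment pool, either Trim21 mRNA pool or either non-manipulated pool (adjusted p up to 0.168).

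TGF-beta and BMP signalling, which patterns tissues and in the ovary links oocyte and follicle cells, had 11 of 41 genes higher and 4 lower, against 8.73% and 14.5% of all genes (list median 0.28, all genes 0.21). The ligands rose most. Besides Tgfb2, Bmp5 stood at 14.11 and 13.76 in full-treatment pools, against 12.28 and 12.25 with Trim21 mRNA (1.67 ± 0.17), and Bmp15, the growth factor of oocytes, at 17.65 and 16.83 in full-treatment pools, against 15.79 and 15.31 with Trim21 mRNA (1.69 ± 0.29). Tgfb3 stood at 8.62 and 8.05 in full-treatment pools, against 6.46 and 6.48 with Trim21 mRNA (1.87 ± 0.34). In these 3 genes the full-treatment pools lay above the Trim21 mRNA pools. Further down the pathway Smad3, which carries the TGF-beta signal to the nucleus, differed by 1.29 ± 0.33, while Smad4, the partner shared by both branches, fell, at 9.09 and 8.68 in full-treatment pools, against 10.21 and 10.12 with Trim21 mRNA (−1.28 ± 0.19). Smad3 and Smad4 were chosen after their values were seen. The balance of the list depended on scaling: with arrays centred on their medians 3 genes were higher and 4 lower, and after quantile normalization 16 and 3. Without single pools of the groups compared 2 to 7 genes rose, the fewest without Trim21 mRNA pool 2. Bmp15 lost its call without Trim21 mRNA pool 2 (adjusted p up to 0.0589). Tgfb3 lost its call after median centring or without full-treatment pool 1 or either Trim21 mRNA pool (adjusted p up to 0.0593). Smad3 lost its call after median centring or without full-treatment pool 1, either Trim21 mRNA pool or either non-manipulated pool (adjusted p up to 0.159).

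Wnt signalling, in which secreted ligands stabilise beta-catenin, had 6 of 44 genes higher and 0 lower, against 8.73% and 14.5% of all genes. The list median was 0.19, near the 0.21 of all genes. Mean levels were under 6 in 25 of the 44, and genes under 6 in non-manipulated embryos rarely fell (0.00% under 4, 0.67% from 4 to 6). Of its 9 members at 8 or more there, 3 rose and 0 fell, against 9.67% and 47.1% of all genes at that level. The Wnt genes that rose were of the receiving side. Lef1, the transcription factor that works with beta-catenin, stood at 9.66 and 9.01 in full-treatment pools, against 7.65 and 7.72 with Trim21 mRNA (1.65 ± 0.24). Dvl3, which relays the signal from the receptor, stood at 10.99 and 10.46 in full-treatment pools, against 9.39 and 9.27 with Trim21 mRNA (1.40 ± 0.20), and the co-receptor gene Lrp5 at 10.55 and 9.95 in full-treatment pools, against 9.30 and 9.17 with Trim21 mRNA (1.02 ± 0.22). Axin2, a brake on the pathway and a known target of it, stood at 10.38 and 10.07 in full-treatment pools, against 9.00 and 8.98 with Trim21 mRNA (1.24 ± 0.21). All 4 had higher values in both pools of the full treatment. The receptor gene Fzd1 and the factor gene Tcf7l1, named after their values were seen, rose by smaller amounts (0.86 ± 0.18 and 0.60 ± 0.16), and none of the 19 Wnt ligand genes was called. With arrays centred on their medians 2 genes of the list were higher and 4 lower. Lrp5 lost its call after median centring or without either Trim21 mRNA pool (adjusted p up to 0.152). Axin2 lost its call after median centring or without Trim21 mRNA pool 2 (adjusted p up to 0.0892). Fzd1 lost its call after median centring or without full-treatment pool 1 or either Trim21 mRNA pool (adjusted p up to 0.147). Tcf7l1 lost its call after quantile normalization, after median centring, after cyclic loess, with the replicate block or without either full-treatment pool, either Trim21 mRNA pool or either non-manipulated pool (adjusted p up to 0.262).

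Of 34 Toll-like receptor and NF-kB genes 4 rose and 4 fell (median 0.25), shares near those of all genes. Besides Rela and Tlr9 the rises were Myd88, the adaptor below most Toll-like receptors, at 8.88 and 9.06 in full-treatment pools, against 7.64 and 7.69 with Trim21 mRNA (1.31 ± 0.26), and Nfkb2, chosen after its values were seen, at 6.90 and 6.82 in full-treatment pools, against 5.66 and 5.64 with Trim21 mRNA (1.21 ± 0.14). Irak2, a kinase-like adaptor below Myd88, fell, at 5.95 and 6.45 in full-treatment pools, against 9.12 and 8.88 with Trim21 mRNA (−2.80 ± 0.26). The inhibitor gene Nfkbia was not called (−0.17 ± 0.25, adjusted p 0.642). Myd88 lost its call after median centring or without full-treatment pool 2 or either Trim21 mRNA pool (adjusted p up to 0.116).

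In receptor tyrosine kinase and MAPK signalling 7 genes rose and 9 fell of 41 (17.1% and 22.0%, against 8.73% and 14.5% of all genes). The list had 10 rises and 8 falls after quantile normalization and 8 and 8 after cyclic loess. Sos1, which activates RAS, stood at 7.22 and 7.67 in full-treatment pools, against 10.86 and 10.69 with Trim21 mRNA (−3.33 ± 0.21), and Fgf4, the ligand that sets apart inner cell lineages later in development, at 7.80 and 7.53 in full-treatment pools, against 9.66 and 9.66 with Trim21 mRNA (−2.00 ± 0.18). The paralogous kinase genes of the ERK pathway separated, with Map2k1 at 12.99 and 12.62 in full-treatment pools, against 11.34 and 11.18 with Trim21 mRNA (1.55 ± 0.25) and Map2k2 at 7.79 and 7.86 in full-treatment pools, against 9.60 and 9.41 with Trim21 mRNA (−1.68 ± 0.21). Map2k1, and the JNK genes Mapk8 (1.13 ± 0.27) and Mapk9 (1.06 ± 0.16), which rose too, were chosen after their values were seen. Insulin, PI3K and mTOR genes gave 6 rises and 9 falls of 42 (14.3% and 21.4%, against 8.73% and 14.5% of all genes). This balance turned to 12 rises and 5 falls after quantile normalization and 11 and 5 after cyclic loess. Igf2r, which clears the growth factor IGF2, stood at 6.62 and 6.87 in full-treatment pools, against 10.91 and 10.60 with Trim21 mRNA (−4.01 ± 0.19). Prkab1, a regulatory subunit of the energy sensor AMPK and chosen after its values were seen, stood at 8.71 and 8.85 in full-treatment pools, against 10.80 and 10.76 with Trim21 mRNA (−2.00 ± 0.15), and the subunit genes Prkaa1 and Prkag1 differed by −2.43 ± 0.64 and −2.21 ± 0.52. Pik3cd, a catalytic subunit of PI3K, rose, at 11.95 and 11.20 in full-treatment pools, against 9.64 and 9.48 with Trim21 mRNA (2.02 ± 0.25). Mapk8 lost its call after median centring or without full-treatment pool 1, either Trim21 mRNA pool or either non-manipulated pool (adjusted p up to 0.214). Mapk9 lost its call after median centring (adjusted p up to 0.0783). Prkaa1 lost its call after quantile normalization, after median centring, after cyclic loess or without either full-treatment pool, either Trim21 mRNA pool or either non-manipulated pool (adjusted p up to 0.162). Prkag1 lost its call after quantile normalization, after cyclic loess or without either full-treatment pool, either Trim21 mRNA pool or either non-manipulated pool (adjusted p up to 0.12).

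The Hippo pathway, which takes part in separating trophectoderm from inner cells of the embryo, gave 1 rise and 7 falls of 24. The shares were 4.17% and 29.2%, against 8.73% and 14.5% of all genes. Of its 12 members at 8 or more in non-manipulated embryos 7 fell, against 47.1% of all genes there. The pathway's transcription factor gene Tead4 stood at 6.94 and 7.14 in full-treatment pools, against 10.72 and 10.80 with Trim21 mRNA (−3.72 ± 0.20). The coactivator gene Wwtr1 stood at 6.10 and 6.03 in full-treatment pools, against 8.53 and 8.45 with Trim21 mRNA (−2.43 ± 0.15). The pools overlapped in neither gene. Notch and Hedgehog genes gave 2 rises and 2 falls of 35, a share below that of all genes in both directions, but 7 rises and 0 falls after quantile normalization and after cyclic loess, with Hey1, a repressor induced by Notch, at 13.10 and 13.10 in full-treatment pools, against 10.53 and 11.13 with Trim21 mRNA (2.27 ± 0.23). Of 33 cell death genes 4 rose and 6 fell (12.1% and 18.2%), near the 8.73% and 14.5% of all genes. Apaf1 and Cycs, the parts of the apoptosome, fell, Apaf1 at 6.76 and 6.50 in full-treatment pools, against 9.13 and 8.86 with Trim21 mRNA (−2.37 ± 0.31) and Cycs at 12.62 and 11.92 in full-treatment pools, against 14.16 and 14.27 with Trim21 mRNA (−1.95 ± 0.25), and Bid differed by −1.90 ± 0.17. Birc3, an inhibitor of cell death chosen after its values were seen, rose (1.29 ± 0.25). Nuclear receptors gave 6 rises and 7 falls of 39 (15.4% and 17.9%, against 8.73% and 14.5% of all genes). The falls were led by Nr2c2 (−3.03 ± 0.29), the retinoic acid receptor gene Rarg (−2.51 ± 0.19) and Nr5a2, a factor of genome activation in the mouse, at 9.06 and 9.16 in full-treatment pools, against 11.40 and 11.40 with Trim21 mRNA (−2.29 ± 0.30). Birc3 lost its call after median centring or without full-treatment pool 1 or either Trim21 mRNA pool (adjusted p up to 0.115).

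The counts for genes of cell structure depended on the scaling. Actin regulators gave 5 rises and 5 falls of 41, near the shares of all genes (8.73% and 14.5%), but 16 rises and 3 falls after quantile normalization and 13 and 3 after cyclic loess. Anln, which organises the cleavage furrow, stood at 8.75 and 8.82 in full-treatment pools, against 11.55 and 11.29 with Trim21 mRNA (−2.64 ± 0.18), while Wasf2, which drives branched actin, rose, at 12.54 and 12.15 in full-treatment pools, against 10.89 and 10.86 with Trim21 mRNA (1.47 ± 0.18), and Fmn2, an actin nucleator of the oocyte spindle, at 13.59 and 13.24 in full-treatment pools, against 11.92 and 11.76 with Trim21 mRNA (1.58 ± 0.30). Tubulin and motor genes gave 5 rises and 10 falls of 47, but 13 rises and 6 falls after quantile normalization and 10 and 5 after cyclic loess. The tubulin genes Tuba1c and Tubb2b, the first chosen after its values were seen, rose by 1.47 ± 0.16 and 1.76 ± 0.21, and the tubulin folding cofactor genes Tbcb and Tbce fell (−3.32 ± 0.18 and −1.72 ± 0.19). Junction and polarity genes gave 2 rises and 4 falls of 33, but 10 rises and 3 falls after quantile normalization and 8 and 3 after cyclic loess, with the adhesion gene Nectin3 at 1.13 ± 0.20 and the polarity kinase gene Prkcz at −0.99 ± 0.15. Of 19 genes later used to fill the blastocyst cavity 3 fell and 0 rose, with Atp1b3 of the sodium pump at 10.81 and 9.79 in full-treatment pools, against 14.08 and 13.92 with Trim21 mRNA (−3.70 ± 0.38). Integrin and matrix genes gave 5 falls, led by Itgb5 (−4.20 ± 0.24), and 2 rises of 38. Genes of muscle, synapse and liver, which lay low on the scale (median levels of 4.97 to 5.24 in the full treatment, against 4.59 to 4.86 with Trim21 mRNA), had median differences of 0.32, 0.42 and 0.34 and 8 rises and 2 falls among 90 measured. The share of rises is near the 8.73% of all genes and the medians are near those of other genes of low level (0.31 and 0.39 in the classes under 6), and with arrays centred on their medians the list medians were −0.02, 0.09 and 0.00 with 0 rises. Fmn2 lost its call after median centring or without full-treatment pool 1 or either Trim21 mRNA pool (adjusted p up to 0.0881). Nectin3 lost its call without full-treatment pool 2 or either Trim21 mRNA pool (adjusted p up to 0.0666).

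MicroRNA genes give short RNAs that pair with target mRNAs. Of 786 miRNA genes matched to RefSeq, 101 rose (12.8%, against 8.73% of all genes) and 14 fell (1.80%, against 14.5%), with a median of 0.37. All genes under a level of 6 in non-manipulated embryos had few falls and positive medians too, with 8.38% rises, 0.00% falls and a median of 0.39 under 4, and 8.11%, 0.67% and 0.31 from 4 to 6. The genes whose mature RNA carries the let-7 seed, a family known for restraining growth and stem cell genes, were looked at after their values were seen. The array reports a transcript cluster at each gene and does not separate the mature RNA from its precursors, and genes with the same mature sequence have different values. Mature sequences from RefSeq (GRCm38.p6) follow for the 4 genes that rose and for 2 with like differences that were not called, with the seed (bases 2 to 8) in capitals, at chr13:48537889-48537910 and chr13:48538239-48538260 (both minus strand), chr15:85706616-85706637 and chr15:85707325-85707346, and chrX:151912353-151912374 and chrX:151913229-151913250 (all plus strand).
Mirlet7f-1: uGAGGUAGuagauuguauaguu
Mirlet7a-1: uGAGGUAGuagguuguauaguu
Mirlet7c-2: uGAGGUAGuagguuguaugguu
Mirlet7b: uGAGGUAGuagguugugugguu
Mirlet7f-2: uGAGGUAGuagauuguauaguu
Mir98: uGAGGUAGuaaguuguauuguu
Of 13 genes with this seed 4 rose and 0 fell, with a median difference of 1.17. Mirlet7f-1 stood at 7.51 and 7.24 in full-treatment pools, against 5.04 and 5.50 with Trim21 mRNA (2.11 ± 0.21, limma's adjusted p 6.31e-04), and Mirlet7c-2 at 6.05 and 6.45 in full-treatment pools, against 4.15 and 4.21 with Trim21 mRNA (2.07 ± 0.18). On the X chromosome Mirlet7f-2 stood at 7.31 and 7.56 in full-treatment pools, against 5.71 and 5.83 with Trim21 mRNA (1.67 ± 0.45), and its neighbour Mir98 at 7.99 and 8.61 in full-treatment pools, against 6.47 and 6.64 with Trim21 mRNA (1.75 ± 0.35). The groups did not overlap in these 4 genes. Mirlet7a-1, next to Mirlet7f-1, stood at 8.21 and 8.88 in full-treatment pools, against 6.09 and 6.60 with Trim21 mRNA without a call (2.20 ± 0.75, adjusted p 0.0768), and Mirlet7b, next to Mirlet7c-2, at 8.40 and 9.01 in full-treatment pools, against 6.60 and 6.76 with Trim21 mRNA (2.03 ± 0.65, adjusted p 0.0672). Both have a wide spread between the antibody-alone pools, at 7.28 and 4.74 for Mirlet7a-1 and 7.69 and 5.41 for Mirlet7b, and both passed the threshold in a fit of only the 4 arrays compared. Mirlet7d, of the same chromosome 13 group as Mirlet7a-1, hardly differed (0.17 ± 0.51, adjusted p 0.82). Mirlet7i and Mirlet7g, each the only one of the 13 measured genes on its chromosome, were not called either, at 0.20 ± 0.21 and 0.35 ± 0.23. Mirlet7f-2 lost its call without either full-treatment pool, either Trim21 mRNA pool or either non-manipulated pool (adjusted p up to 0.175). Mir98 lost its call without full-treatment pool 2 or either Trim21 mRNA pool (adjusted p up to 0.0903).

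**Figure D4:**
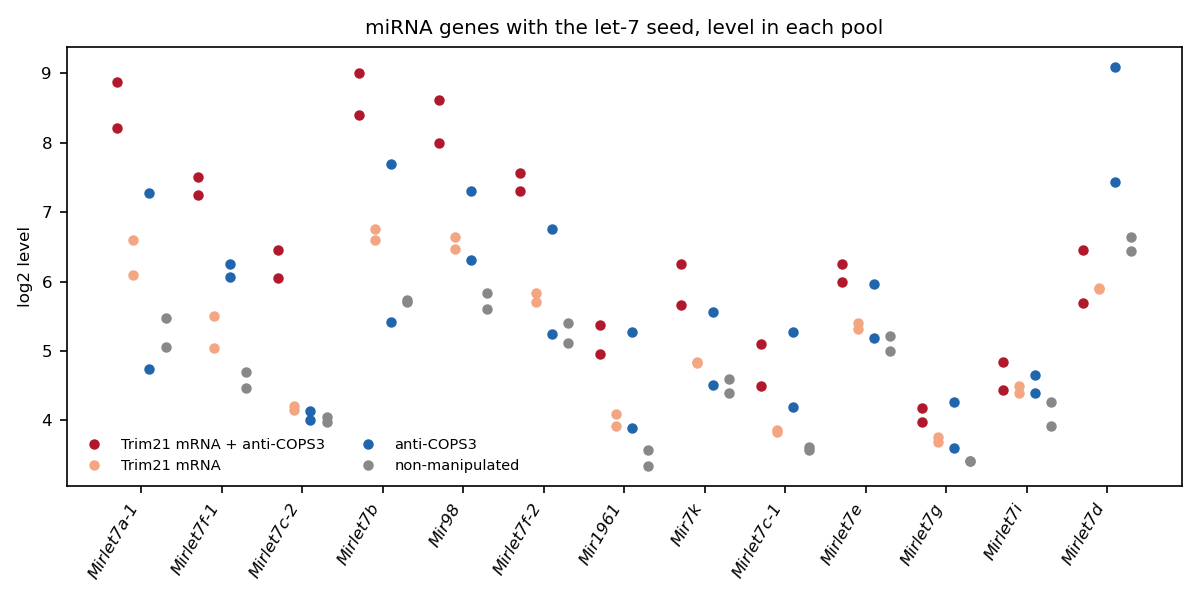
Log2 levels of the 13 miRNA genes with the let-7 seed in each pool (points) of the 4 groups, ordered by the difference between the full treatment and Trim21 mRNA. In Mirlet7a-1, Mirlet7f-1, Mirlet7c-2, Mirlet7b, Mir98 and Mirlet7f-2 both pools of the full treatment lie above all other pools.

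The antibody difference was set beside that without Trim21 mRNA, which shares no array with it. Both groups of the first difference were injected. The second also holds any effect of injection, since non-manipulated embryos were left in the incubator. Dependence on Trim21 mRNA therefore cannot be told apart from injection or from the day of treatment. Antibody alone against non-manipulated embryos gave 846 rises (2.76%) and 2237 falls (7.29%). The 2 antibody differences differed for 1253 genes (4.08%), the difference with Trim21 mRNA being the higher for 192 (0.625%) and the lower for 1061 (3.46%). Both counts rested on single pools: without 1 array at a time the interaction gave 23 to 2163 higher and 76 to 3500 lower genes, fewest without non-manipulated pool 2 and most without antibody-alone pool 2, and antibody alone gave 14 to 8283 rises and 80 to 5508 falls, fewest without non-manipulated pool 1 and most without antibody-alone pool 2. Of the 25 largest rises 11 and of the 25 largest falls 14 were among the 1253 genes. These genes were picked for a large difference with Trim21 mRNA, which is itself part of the interaction. The pick favours a call, so their share cannot be set against the 4.08% of all genes. Rela stood at 8.49 and 9.02 with antibody alone, against 8.72 and 8.70 in non-manipulated embryos (differences 2.82 and 0.05, limma's adjusted p of their difference 0.00583). Spry4 stood at 11.34 and 12.46 with antibody alone, against 12.88 and 12.43 in non-manipulated embryos (differences 2.56 and −0.76, adjusted p 0.0183). Phlda2 stood at 12.79 and 12.82 with antibody alone, against 12.27 and 11.77 in non-manipulated embryos (differences −4.93 and 0.79, adjusted p 0.00227). In these genes the full treatment stood apart from the other 3 groups. Tsn, a DNA and RNA binding protein, at 11.64 and 11.74 with antibody alone, against 12.09 and 12.08 in non-manipulated embryos, and Trim43b, of a family expressed before implantation, at 12.69 and 12.10 with antibody alone, against 13.10 and 13.21 in non-manipulated embryos, were likewise low in the full treatment alone. Eif4e (−1.92 and 0.04), Med4 (−3.27 and −0.22), Pdhb (−3.04 and 0.74), Npm2 (1.70 and −0.46) and Kpna7 (2.32 and 0.74) differed as well, at adjusted p of 0.00645, 0.00518, 0.00357, 0.0217 and 0.00912. Other genes gave near differences whether or not Trim21 mRNA was present. Kdelr2 stood at 13.05 and 11.77 with antibody alone, against 9.77 and 9.49 in non-manipulated embryos (differences 3.12 and 2.78, adjusted p 0.913), Gtf3c1 at 9.69 and 9.85 with antibody alone, against 12.44 and 12.54 in non-manipulated embryos (−2.90 and −2.72, adjusted p 0.845), and Bmp5 at 14.49 and 14.47 with antibody alone, against 12.81 and 12.97 in non-manipulated embryos (1.67 and 1.59, adjusted p 0.956). A p that misses the threshold does not show that these differences are equal, and the median standard error of their difference was 0.31.

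**Figure D5:**
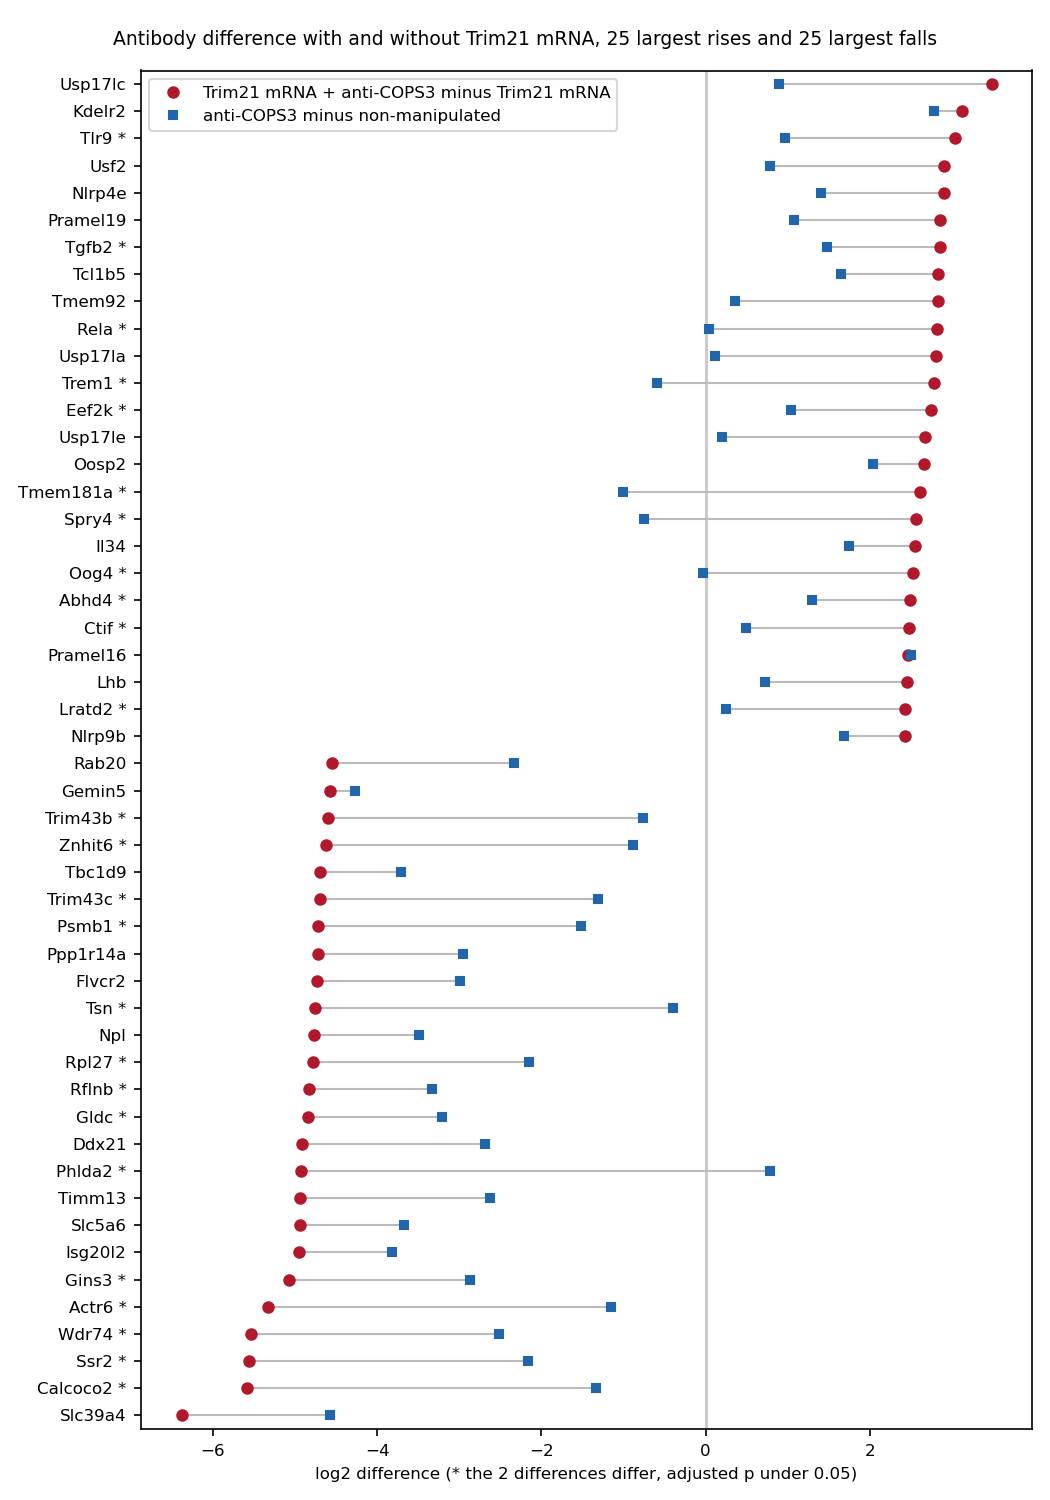
Log2 differences of the 25 largest rises and 25 largest falls (rows): full treatment minus Trim21 mRNA (circles) and antibody alone minus non-manipulated embryos (squares), joined by a line. The squares also hold any effect of injection itself. A star marks the 25 genes whose 2 differences differed in limma's fit, among them Rela (2.82 and 0.05) and Phlda2 (−4.93 and 0.79).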

How the data were processed

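The deposited values are log2 levels of transcript clusters on whole-transcript arrays, prepared with the GeneChip WT Pico kit per the labels' protocols and summarised with Affymetrix Expression Console per the submitters' processing notes. For its settings and for the array's genome build nothing is stated: not given in the sources used here. The deposited column of the first array was treated as a score, because 1 of its cells holds a number over 100 that cannot be a log2 level, and that row was dropped. Of 65956 clusters 31257 named 1 gene, 1492 several and 33206 none, and a gene on several clusters (441) was represented by the cluster with the highest mean, which left 30701 genes. Whether a cluster lies at the gene it names or at a copy elsewhere in the genome was not tested, for example for Kpna2, Hdac1 and Cycs. No further scaling was applied. limma 3.58.1 (R 4.3.3) was fitted to all 8 arrays with a mean per group, with Benjamini-Hochberg adjustment over all genes and two-sided tests. It was tested on simulated data. An exact permutation test over samples was not used, since groups of 2 cannot reach 0.05. Genes named are the 25 largest rises and falls with separate pools, the largest called members of each list, and others said to be chosen after their values were seen. The comparison, the members and the lists were chosen with earlier results of these data known. Same-numbered pools did not deviate together (correlations of −0.191 to 0.143), so replicate numbers do not pair the samples. Promoters, miRNAs and updated symbols (1152) are from RefSeq.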

Additional observations from a re-analysis of the deposited data

Results flagged for a closer look

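For 25 of the 50 genes with the largest changes, limma's interaction term found that the antibody difference with Trim21 mRNA differed from that without it. The genes were picked for a large difference with Trim21 mRNA, which is part of the interaction and favours a call. The difference without it also holds any effect of injection, since non-manipulated embryos were not injected. The values below are the first difference minus the second on the log2 scale. Among genes that rose, this value was 3.62 for Tmem181a, 3.38 for Trem1, 3.32 for Spry4, 2.78 for Rela, 2.56 for Oog4, 2.19 for Lratd2, 2.08 for Tlr9, 1.98 for Ctif, 1.71 for Eef2k, 1.38 for Tgfb2 and 1.20 for Abhd4. Among genes that fell, it was −5.72 for Phlda2, −4.36 for Tsn, −4.26 for Calcoco2, −4.18 for Actr6, −3.84 for Trim43b, −3.73 for Znhit6, −3.41 for Ssr2, −3.38 for Trim43c, −3.20 for Psmb1, −3.03 for Wdr74, −2.64 for Rpl27, −2.21 for Gins3, −1.64 for Gldc and −1.50 for Rflnb.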

How the results depend on the processing

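Of 354 called genes among the 357 named, 253 kept their call and direction under every alternative run, 101 lost the call under at least 1, and 0 changed sign. For the full treatment against Trim21 mRNA, 876 genes rose with arrays centred on their medians (14.0% of calls, against 37.6% as deposited), 6224 with 1 weight per group, 5262 in a fit of the 4 arrays compared, and 1287 at 2-fold or more. Leaving out 1 array at a time gave 595 to 7968 rises and 2771 to 6225 falls. For antibody alone against non-manipulated embryos, 1395 genes fell after quantile normalization, 352 rose with median centring, 535 rose at 2-fold or more, and 233 rose and 944 fell with 1 weight per group. Without 1 array at a time 14 to 8283 rose and 80 to 5508 fell. The interaction was higher for 515 genes after quantile normalization, 106 with median centring and 372 after cyclic loess, and without 1 array at a time it was higher for 23 to 2163 and lower for 76 to 3500. Counted over the 66 lists of functions together with the marker lists, 15 lists had at least 50% of their members lower. More rises than falls were found in 7, the sperm and oviduct marker lists among them. These numbers were 8 and 23 after quantile normalization, 8 and 19 after cyclic loess and 17 and 0 with median centring, and without 1 of the 4 arrays compared 5 to 10 and 4 to 8. The causes of these shifts were not tested.

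Replicate numbers do not pair the pools. With the replicate number as a block, 1921 genes rose and 4131 fell in the full treatment against Trim21 mRNA, and the interaction was higher for 112 genes. With 2 arrays per group, their number and the spread of the antibody-alone pools limit the precision.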
